A study of Homo sapiens with 10 samples.

Results

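The genes that make, break down, carry or answer to asymmetric dimethylarginine (ADMA) were followed in LoVo cells, a human colorectal adenocarcinoma line. The 10 genes were chosen by role: PRMT1 and PRMT5, DDAH1 and DDAH2, SLC7A1 and SLC7A2, ARG2 and ASS1, and NOS2 and NOS3. They are 10 of the 19775 genes for which the array holds a probe set annotated to a single symbol. Of these 10, 9 passed the filter on dim signals and were tested among 12344 genes; NOS2 did not pass it. The 3 culture conditions lasted 96 h, all in the same line and the same basal medium (DMEM): control cells with 10% fetal bovine serum on 3 arrays, serum-starved cells with 0% serum on 3 arrays, and ADMA-treated cells with 0% serum and 10 µM ADMA on 4 arrays. The labels call the arrays biological replicates of 1 cell line and do not say how the cultures were separated, so the spread between arrays is the only error measured.

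ADMA arises when proteins carrying methylated arginine are broken down. Type I protein arginine methyltransferases such as PRMT1 write the asymmetric mark, and type II enzymes such as PRMT5 write the symmetric one. Free ADMA resembles arginine and inhibits nitric oxide synthases, it enters cells through the cationic amino acid transporters that also carry arginine, and it is hydrolysed by the dimethylarginine dimethylaminohydrolases DDAH1 and DDAH2. ASS1 catalyses the rate-limiting step in remaking arginine from citrulline, ARG2 is the mitochondrial arginase that splits arginine into ornithine and urea, and NOS2 and NOS3 are the inducible and the endothelial nitric oxide synthase.

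Transcript level was read as the MAS 5.0 signal of 1 probe set per gene, the one with the highest mean, on the log2 scale. A difference of 1 on that scale is a doubling. A gene was said to rise or fall where limma gave an adjusted p under 0.01 (Benjamini-Hochberg, over all genes tested) and a fold of at least 1.2. Signals were set against a background level, the 95th percentile of the Bacillus control probe sets of each array, which lay between 5.13 and 6.13 on the log2 scale. Each array had a trimmed mean of 500.1, but the median signal of all probe sets was 60.7 to 73.1 in control, 87.5 to 90.7 in serum-starved and 91.9 to 98.1 in ADMA-treated cells. The 28S ribosomal RNA control probe set moved with the groups too, at 501 to 634 in control, 1345 to 2014 in serum-starved and 795 to 1052 in ADMA-treated cells, and the actin 3'/5' ratio was 1.01 to 1.08, 1.13 to 1.23 and 1.02 to 1.05. The part of these array properties in the results was not tested. All 14 markers of colon epithelium were above background on every array. Of 8 endothelial markers 1 was, PECAM1, and of 6 leukocyte markers 2 were, LYZ and ITGAM, while PTPRC and CD14 were above background on no array. The summed signal of the leukocyte markers ran from 598.8 to 905.7, 4185 to 4804 and 1613 to 2278 in the 3 groups in that order, that of the endothelial markers from 331.6 to 364.4, 303.1 to 499.8 and 347.3 to 585.5, and that of 8 fibroblast markers, 2 of them above background throughout, from 1402 to 1505, 2162 to 2341 and 2506 to 2884. That of the colon epithelium markers ran from 99360 to 100500, 147300 to 165600 and 181100 to 205600, but these 14 did not all move alike. The mean log2 signal of CEACAM5 was 12.24, 14.64 and 14.75, and that of KRT20 8.14, 9.13 and 11.63. CDX1 read 9.06, 7.03 and 8.58, CDX2 9.63, 8.30 and 9.51, and GPA33 11.08, 10.35 and 12.155. Among the leukocyte markers the mean log2 signal of LYZ was 8.99, 12.03 and 10.61, and that of ITGAM 6.82, 6.61 and 7.04. Among the fibroblast markers VIM read 9.10, 10.40 and 10.86, and COL3A1, above background on 3 arrays, 7.37, 3.62 and 4.56. Their part in the results was not tested. In these bulk samples, fewer cells of a kind and less transcript per cell cannot be told apart.

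DDAH2, PRMT1, PRMT5 and ASS1 had group means that spanned at least 1 on the log2 scale and an upstream sequence in the RefSeq table used here, and their promoters are shown so that the genes that moved most can be read beside their values. Each line gives the 250 bases before the most upstream start in that table, 5′ to 3′ on the gene's own strand in GRCh38.p14. They lie at chr6:31730264-31730513 on the minus strand (DDAH2), chr19:49677021-49677270 on the plus strand (PRMT1), chr14:22929377-22929626 on the minus strand (PRMT5) and chr9:130444457-130444706 on the plus strand (ASS1). The PRMT1 window lies inside the annotated span of the gene, which begins upstream of it at base 49676153. Capitals mark the GC box GGGCGG and the CCAAT box CCAAT on either strand; no match of one overlapped a match of the other.
DDAH2: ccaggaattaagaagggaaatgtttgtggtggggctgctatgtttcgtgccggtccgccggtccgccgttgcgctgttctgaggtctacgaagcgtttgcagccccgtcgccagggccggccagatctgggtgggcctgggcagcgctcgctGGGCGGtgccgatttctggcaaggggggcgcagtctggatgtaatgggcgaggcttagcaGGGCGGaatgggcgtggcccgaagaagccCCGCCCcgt
PRMT1: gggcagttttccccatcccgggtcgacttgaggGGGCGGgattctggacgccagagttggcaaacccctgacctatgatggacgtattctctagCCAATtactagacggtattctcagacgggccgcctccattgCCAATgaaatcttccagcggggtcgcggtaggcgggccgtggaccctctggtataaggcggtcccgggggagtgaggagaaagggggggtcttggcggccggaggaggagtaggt
PRMT5: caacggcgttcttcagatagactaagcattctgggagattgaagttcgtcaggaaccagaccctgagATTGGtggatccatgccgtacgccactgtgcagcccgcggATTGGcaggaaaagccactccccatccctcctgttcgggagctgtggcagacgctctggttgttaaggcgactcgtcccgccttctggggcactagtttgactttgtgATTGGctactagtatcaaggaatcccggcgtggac
ASS1: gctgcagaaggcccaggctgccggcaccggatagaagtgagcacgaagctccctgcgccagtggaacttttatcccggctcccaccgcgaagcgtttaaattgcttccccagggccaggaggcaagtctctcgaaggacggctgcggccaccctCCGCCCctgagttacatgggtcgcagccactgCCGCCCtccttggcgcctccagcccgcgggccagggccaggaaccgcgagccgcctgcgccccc

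The E-box CACGTG, the cyclic AMP response element TGACGTCA, the amino acid response core TGATGCAA and the TATA box TATAAA had no match in these 4 windows on either strand. PRMT1 held 2 CCAAT boxes, 156 to 152 and 115 to 111 bases before its start, and PRMT5 held 3. DDAH2 held 3 GC boxes, ASS1 held 2 and PRMT1 held 1. Of the windows of 250 bases in the whole table, 42.6% held a GC box, 32.0% a CCAAT box, 6.34% an E-box, 1.65% a cyclic AMP response element, 0.772% the amino acid response core and 10.7% a TATA box. Among the other members with a listed start, SLC7A1 held 6 GC boxes and 1 CCAAT box, ARG2 held 5, 2 and also 2 matches to the cyclic AMP response element, NOS3 held 1 GC box, and DDAH1 held none of the 6 motifs. A match is a run of letters only and says nothing of which factor is bound.

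Of the 9 tested members, 5 fell with serum starvation, PRMT1, PRMT5, SLC7A2, NOS3 and ASS1, and 2 rose, DDAH2 and SLC7A1. Among all genes tested, 27.3% fell, 30.3% rose and 57.6% did either. ADMA-treated cells, set against serum-starved cells, had 4 members higher, PRMT1, SLC7A2, ASS1 and DDAH1, and 1 lower, ARG2; of all genes 15.7% were higher, 13.8% lower and 29.5% either. Against control, ADMA-treated cells had 5 members lower, PRMT1, PRMT5, ASS1, NOS3 and ARG2, and 2 higher, DDAH2 and SLC7A1, where 23.2% of all genes were lower, 26.6% higher and 49.8% either. The median log2 difference of the 9 members was -0.58, 0.21 and -0.56 in the 3 comparisons, and that of all genes tested was 0.07, 0.03 and 0.07. With 9 genes these counts describe the list and are no test of it. The comparisons share arrays, so their values are given side by side and were not counted against each other.

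**Figure D1:**
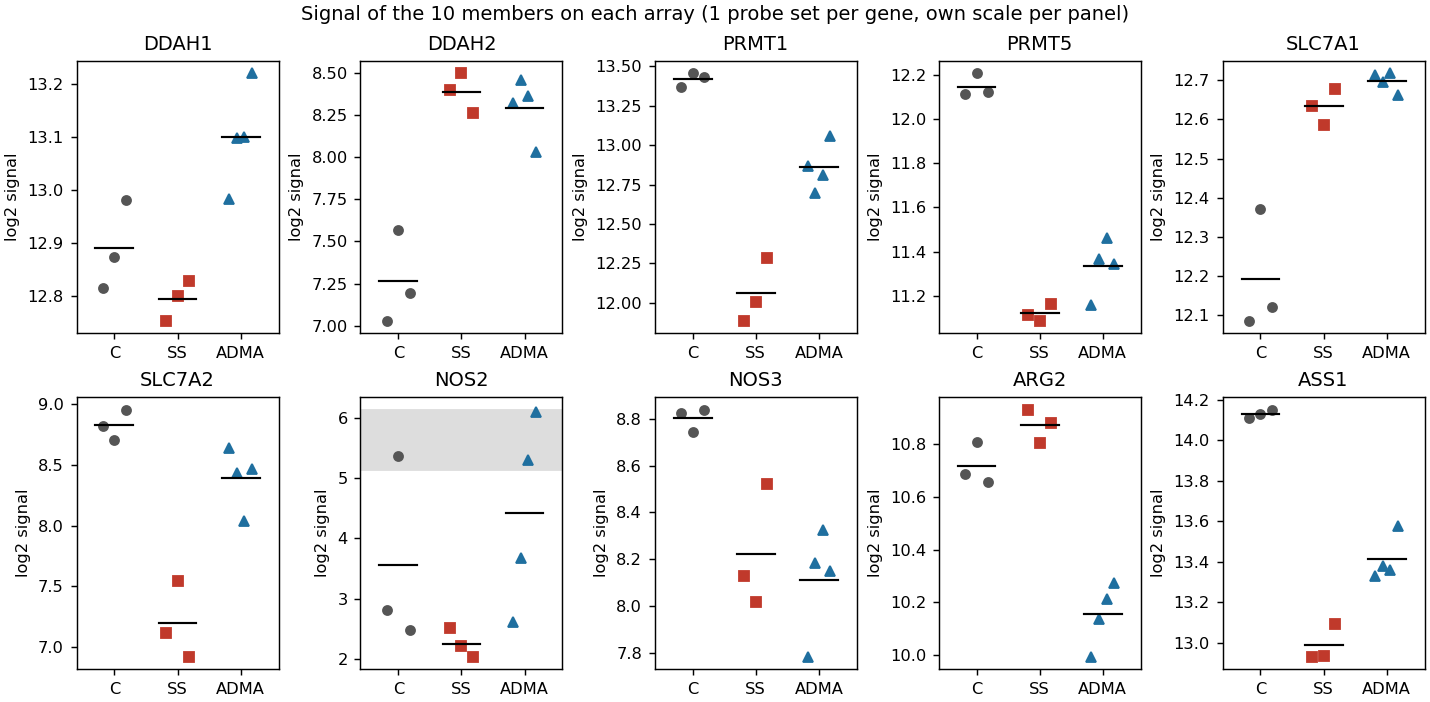
Log2 signal of each member on every array, for control (C, 3 arrays), serum-starved (SS, 3 arrays) and ADMA-treated cells (ADMA, 4 arrays); points are arrays, bars are group means, each panel has its own scale, and the grey band in the NOS2 panel spans the background levels of the 10 arrays. PRMT1, SLC7A2 and ASS1 were lowest in serum-starved cells, ARG2 was lowest in ADMA-treated cells, and most NOS2 values lay under the background level.

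Of the enzymes that methylate arginine in proteins, PRMT1 is the main source of asymmetric dimethylarginine in mammalian cells. Its log2 signal was 13.37, 13.45 and 13.43 in control, 11.89, 12.01 and 12.29 in serum-starved and 12.87, 12.70, 12.81 and 13.05 in ADMA-treated cells. The 3 groups did not overlap, and the ADMA-treated arrays lay between the other groups. PRMT1 fell by 1.36 with serum starvation (SE 0.10, limma adjusted p = 1.25e-08), a 2.56-fold difference. It was 0.80 higher with ADMA than in serum-starved cells (SE 0.09, limma adjusted p = 9.09e-06). ADMA-treated cells differed from control by -0.56 (SE 0.09, limma adjusted p = 8.44e-05).

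PRMT5, which forms symmetric dimethylarginine on histones and splicing proteins, read 12.11, 12.21 and 12.12 in control, 11.11, 11.09 and 11.16 in serum-starved and 11.16, 11.37, 11.46 and 11.34 in ADMA-treated cells. All 7 arrays without serum lay below the control arrays, and 1 ADMA-treated array lay inside the serum-starved range. PRMT5 fell by 1.03 with serum starvation (SE 0.07, limma adjusted p = 1.24e-08). The difference of ADMA-treated from serum-starved cells, 0.21 (SE 0.07, limma adjusted p = 0.0219), did not pass. Without ADMA-treated replicate 1 it was 0.27, with a limma adjusted p of 0.00268, and passed. ADMA-treated cells differed from control by -0.81 (SE 0.07, limma adjusted p = 1.20e-07).

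Of the enzymes that hydrolyse ADMA, DDAH2 read 7.03, 7.57 and 7.20 in control, 8.40, 8.50 and 8.26 in serum-starved and 8.32, 8.46, 8.36 and 8.03 in ADMA-treated cells. Every serum-free array was above every control array, and the serum-starved and ADMA-treated arrays overlapped. DDAH2 rose by 1.12 with serum starvation (SE 0.17, limma adjusted p = 3.68e-05), a 2.17-fold difference. ADMA-treated cells differed from serum-starved cells by -0.09 (SE 0.16, limma adjusted p = 0.682) and were 1.03 above control (SE 0.16, limma adjusted p = 5.64e-05). With each array centred on its own median the latter was 0.52, with a limma adjusted p of 0.0167, and did not pass.

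DDAH1 read 12.81, 12.87 and 12.98 in control, 12.75, 12.80 and 12.83 in serum-starved and 12.98, 13.10, 13.10 and 13.22 in ADMA-treated cells. The control and serum-starved arrays overlapped, and the ADMA-treated arrays lay above both, with the lowest of them within 0.01 of the highest control array. The difference of serum-starved from control cells was -0.10 (SE 0.07, limma adjusted p = 0.210) and did not pass as deposited; with centred arrays it was -0.49 and passed (limma adjusted p = 0.000141), and with quantile normalization it was 0.08 and did not. DDAH1 was 0.31 higher with ADMA than in serum-starved cells (SE 0.06, limma adjusted p = 0.00103), a 1.24-fold difference; this was 0.22 under quantile normalization, short of the minimum fold, and 0.19 with arrays centred on their medians (limma adjusted p = 0.116). Against control the ADMA-treated cells differed by 0.21 (limma adjusted p = 0.00806) at a fold of 1.16, under the minimum, so it was not called as deposited. It was called higher under quantile normalization (0.29, limma adjusted p = 0.000196) and lower with centred arrays (-0.30, limma adjusted p = 0.00708), so the scaling sets its direction.

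**Figure D2:**
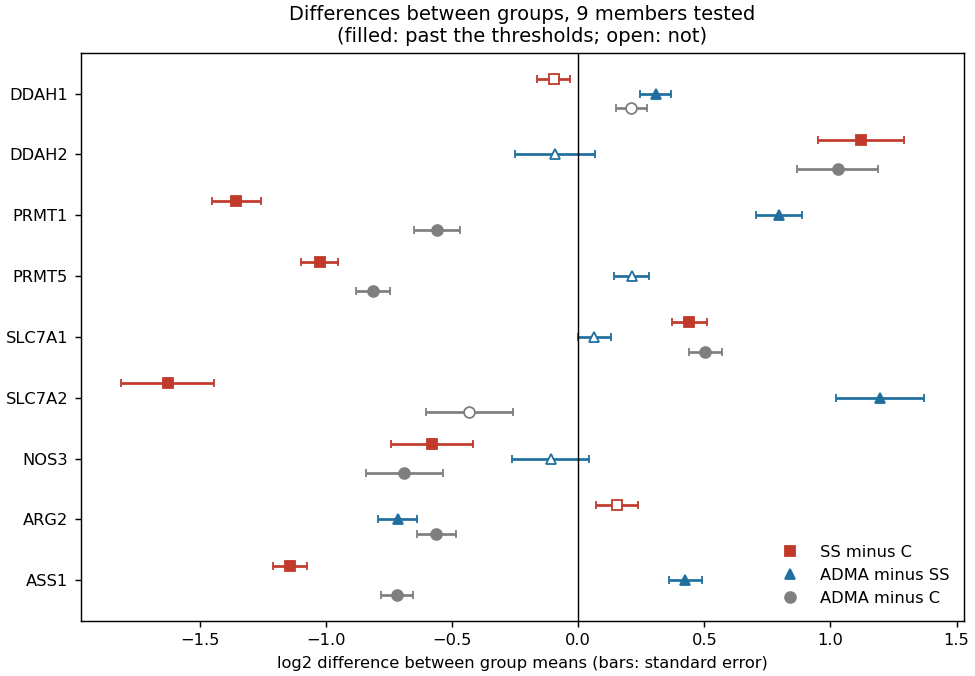
Log2 difference between group means for the 9 members tested, with the standard error of the limma fit as bars; red squares are serum-starved (SS) minus control (C), blue triangles ADMA-treated (ADMA) minus serum-starved and grey circles ADMA-treated minus control, filled where past both thresholds. SLC7A2 had the widest differences, -1.63 and 1.196, and DDAH2 lay at 1.12 and 1.03 over control but at -0.09 between the serum-free groups.

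Of the transporters that carry arginine and ADMA, SLC7A2, the inducible cationic amino acid transporter CAT-2, read 8.81, 8.70 and 8.95 in control, 7.12, 7.55 and 6.92 in serum-starved and 8.63, 8.43, 8.04 and 8.47 in ADMA-treated cells. The 3 groups did not overlap, with serum-starved arrays lowest. SLC7A2 fell by 1.63 with serum starvation (SE 0.19, limma adjusted p = 1.74e-06), a 3.09-fold difference. With ADMA it was 1.196 above serum-starved cells (SE 0.17, limma adjusted p = 7.44e-05), a 2.29-fold difference. Its difference from control in ADMA-treated cells was -0.43 (SE 0.17, limma adjusted p = 0.0423) and did not pass, though it did under quantile normalization (-0.63, limma adjusted p = 0.00552) and with centred arrays (-0.94, limma adjusted p = 3.56e-05).

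SLC7A1, the widely expressed transporter CAT-1, read 12.09, 12.37 and 12.12 in control, 12.64, 12.59 and 12.68 in serum-starved and 12.71, 12.69, 12.72 and 12.66 in ADMA-treated cells. Both serum-free groups lay above the control arrays and overlapped each other. SLC7A1 rose by 0.44 with serum starvation (SE 0.07, limma adjusted p = 4.89e-05) and was 0.50 above control in ADMA-treated cells (SE 0.06, limma adjusted p = 8.58e-06), but with each array centred on its median these differences were 0.05 and -0.003. Between ADMA-treated and serum-starved cells the difference was 0.06 (SE 0.06, limma adjusted p = 0.460). The 2 transporters had opposite signs under serum starvation in the values as deposited, while in centred values only the fall of SLC7A2 passed.

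Of the enzymes that make and spend arginine, ASS1 read 14.11, 14.13 and 14.15 in control, 12.93, 12.93 and 13.09 in serum-starved and 13.33, 13.38, 13.36 and 13.57 in ADMA-treated cells. The groups did not overlap, and the ADMA-treated arrays again lay between the others. ASS1 fell by 1.14 with serum starvation (SE 0.07, limma adjusted p = 1.73e-09), a 2.21-fold difference. It was 0.43 higher with ADMA than in serum-starved cells (SE 0.06, limma adjusted p = 0.000102) and differed from control by -0.72 (SE 0.06, limma adjusted p = 1.96e-07). With centred arrays the ADMA difference was 0.31 with a limma adjusted p of 0.0102, just short of the threshold.

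ARG2 had another pattern. It read 10.69, 10.81 and 10.66 in control, 10.93, 10.80 and 10.88 in serum-starved and 10.00, 10.14, 10.21 and 10.27 in ADMA-treated cells. All 4 ADMA-treated arrays lay below the other 6, which overlapped each other. Serum-starved cells differed from control by 0.15 (SE 0.08, limma adjusted p = 0.110), and by -0.24 with centred arrays, and neither passed. With ADMA, ARG2 fell by 0.72 relative to serum-starved cells (SE 0.08, limma adjusted p = 4.67e-06), a 1.64-fold difference, and ADMA-treated cells differed from control by -0.56 (SE 0.08, limma adjusted p = 1.46e-05).

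Of the nitric oxide synthases, NOS3 read 8.82, 8.74 and 8.84 in control, 8.13, 8.02 and 8.52 in serum-starved and 7.79, 8.19, 8.33 and 8.15 in ADMA-treated cells. The serum-free arrays lay below the control arrays, with serum-starved replicate 3 highest among them. NOS3 fell by 0.58 with serum starvation (SE 0.16, limma adjusted p = 0.00576). The call was lost on leaving out control replicate 1, 2 or 3 or serum-starved replicate 1 or 2, with differences of -0.61 to -0.48 and a limma adjusted p of 0.0126 to 0.0315. ADMA-treated cells differed from control by -0.69 (SE 0.15, limma adjusted p = 0.00118) and from serum-starved cells by -0.11 (SE 0.15, limma adjusted p = 0.600).

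NOS2 was near or under the background level. Its only probe set read 2.81, 5.36 and 2.48 in control, 2.51, 2.22 and 2.04 in serum-starved and 2.61, 3.67, 5.30 and 6.09 in ADMA-treated cells, and it was above its own array's background on 2 of the 10 arrays, control replicate 2 and ADMA-treated replicate 4. No fold is given for it. When every gene was tested with no filter, none of its 3 differences passed, with limma adjusted p of 0.317, 0.0941 and 0.497.

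Several members had more than 1 probe set, and these did not all move alike. The 10 genes have 26 probe sets annotated to them alone, of which 19 reached the filter and were tested among 27307 probe sets. In that fit 52.7% of all probe sets passed between serum-starved and control cells, 22.7% between ADMA-treated and serum-starved cells and 47.1% between ADMA-treated and control cells. All 3 tested probe sets of PRMT5 fell with serum starvation, with log2 differences of -1.25, -1.05 and -1.03. With ADMA 1 of them was higher than in serum-starved cells, 1564521_x_at at 0.30 (SE 0.06, limma adjusted p = 0.00203), and the others differed by 0.10 and 0.21 without passing.

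All 3 probe sets of DDAH2 rose with serum starvation. The probe set 202262_x_at differed by 0.87 and 214909_s_at by 1.12. The remaining one, 215537_x_at, read 4.19 to 5.78 on the control arrays, never above background there, and 7.62 to 7.98 in serum-starved and 7.75 to 8.10 in ADMA-treated cells. It was at least 4.79-fold higher in serum-starved and at least 5.18-fold higher in ADMA-treated cells than in control. Here the background level of each control array was taken as the bound, and these bounds were not tested. The control mean of 215537_x_at, 5.02, was under the filter of 6.25. It reached the filter only through the serum-free groups, so no p is given for it. Both probe sets of ARG2 were lower in ADMA-treated than in serum-starved cells, by -0.72 and, for 203945_at, -0.46 (SE 0.09, limma adjusted p = 0.00146).

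For DDAH1, the dimmer probe set 1553565_s_at fell by 0.65 with serum starvation (SE 0.16, limma adjusted p = 0.00236) where the brightest, 209094_at, differed by -0.10 without passing, and with ADMA both were higher, at 0.58 (limma adjusted p = 0.00771) and 0.31. Another, 229456_s_at, passed in no comparison. For SLC7A1, only 212295_s_at of 4 tested probe sets rose with serum starvation. The others differed by -0.14, -0.14 and 0.30 with standard errors of 0.29, 0.15 and 0.21, and did not pass. The second probe sets of PRMT1 and NOS3, and 1 more of DDAH1, were above background on no array. For SLC7A2 the calls rest on 1 probe set. Its others, 207626_s_at and 230658_at, did not reach the filter and were each above background on 4 arrays. In control, serum-starved and ADMA-treated cells 207626_s_at had means of 6.16, 5.41 and 5.22, lowest with ADMA. Those of 230658_at were 5.52, 4.22 and 4.99.

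**Figure D3:**
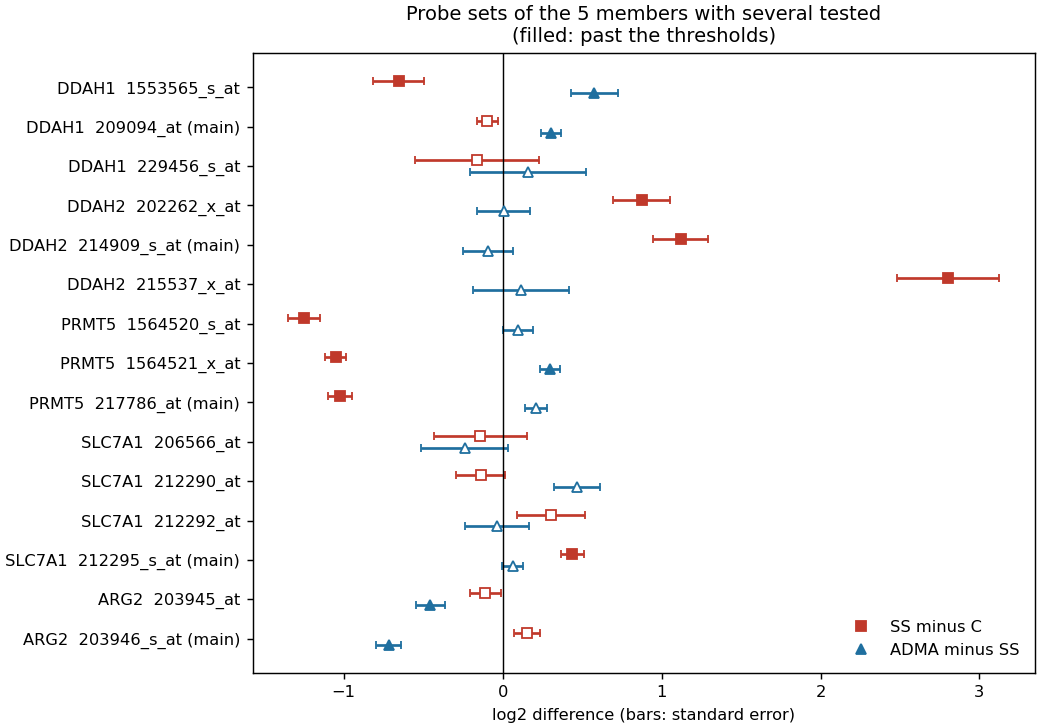
Log2 differences with standard errors for each tested probe set of DDAH1, DDAH2, PRMT5, SLC7A1 and ARG2, for serum-starved minus control (red squares) and ADMA-treated minus serum-starved (blue triangles), filled where past both thresholds; the probe set used for the gene is marked main. The 3 DDAH2 and 3 PRMT5 probe sets lie on the same side in red, and those of SLC7A1 lie on both sides of 0; the value plotted for 215537_x_at uses control signals under background.

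Because the arrays differed in their medians, the members were also read under other scalings. Centring each array on its median moved the median difference of all genes tested from 0.07, 0.03 and 0.07 to -0.32, -0.09 and -0.44 in the 3 comparisons, and the share of called genes that were higher from 52.6%, 53.2% and 53.5% to 28%, 30.1% and 16.5%. PRMT1, SLC7A2, ASS1, PRMT5 and NOS3 fell with serum starvation under all 3 scalings, and DDAH2 rose under all 3. PRMT1 and SLC7A2 were higher, and ARG2 lower, with ADMA than in serum-starved cells under all 3. The differences for PRMT1 with ADMA were 0.80 as deposited, 0.76 with quantile normalization and 0.68 with centred arrays. For ARG2 they were -0.72, -0.70 and -0.83. By SAM, the test named in the methods, at the same thresholds, NOS3 and SLC7A1 did not pass under serum starvation (q of 0.0253 and 0.0603). DDAH1 and ASS1 did not pass with ADMA against serum starvation (q of 0.0428 and 0.0179), nor PRMT1, ARG2 and SLC7A1 with ADMA against control (q of 0.0139, 0.0138 and 0.0186).

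**Figure D4:**
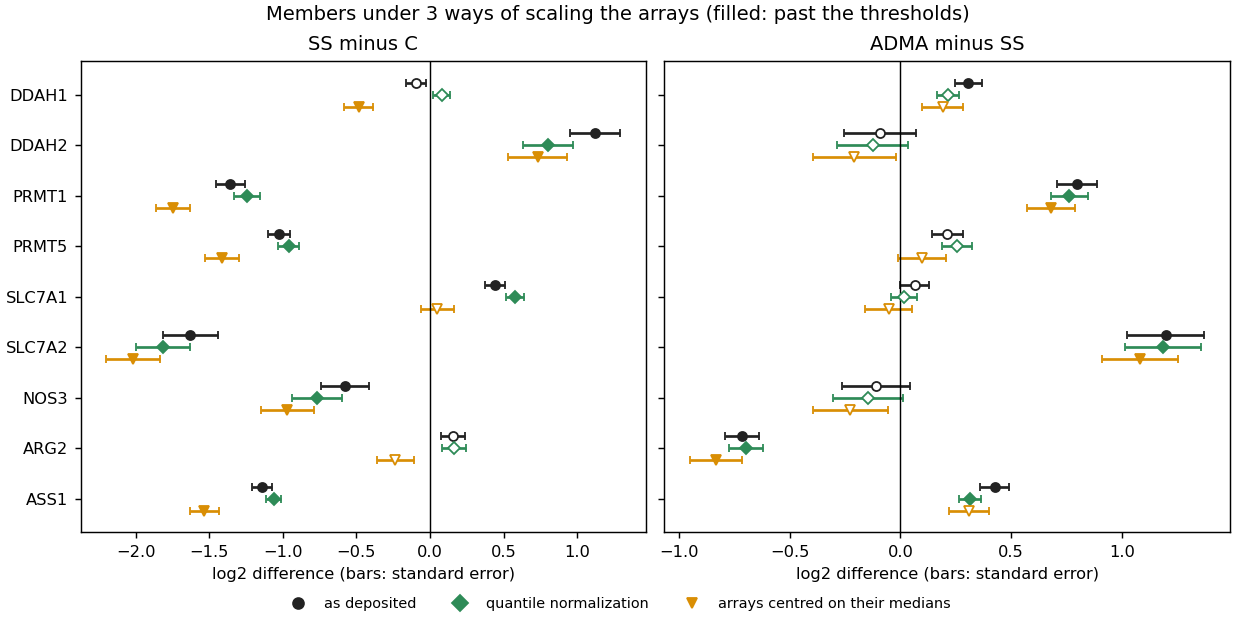
Log2 differences with standard errors for the 9 members tested, as deposited (black circles), after quantile normalization (green diamonds) and with arrays centred on their medians (orange triangles), filled where past both thresholds; the left panel is serum-starved minus control and the right panel ADMA-treated minus serum-starved. In the left panel the centred values lie to the left of the deposited ones, and SLC7A1 moves from 0.44 to 0.05.

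Around the members, 67 genes of the same pathways were read by list. Of these 65 had a probe set annotated to 1 symbol, and 53 were tested; the others were not analysed here. With serum starvation 25 of the 53 fell and 9 rose (47.2% and 17%, median -0.24), where 27.3% of all genes tested fell and 30.3% rose. With centred arrays 32 of the 53 fell and 2 rose, and of all 12344 genes 5184 and 2013. Between ADMA-treated and serum-starved cells 15 were higher and 4 lower as deposited (28.3% and 7.55%, median 0.09, with 15.7% and 13.8% of all genes). After centring, 3 were higher, AGMAT, ODC1 and SLC7A7, and 5 lower, BTG1, GCH1, SAT1, SLC3A2 and SMOX. Of all 12344 genes 901 were then higher and 2093 lower. Against control 20 were lower and 9 higher in ADMA-treated cells (37.7% and 17%, median -0.14, with 23.2% and 26.6% of all genes). After centring, 35 were lower and 2 higher, and of all 12344 genes 6101 and 1209. The counts of the single lists are to be read against the same shares of all genes.

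Of 6 other protein arginine methyltransferases tested, 4 fell with serum starvation and none rose, while 1 rose with the mean of all probe sets per gene and with no _s_at or _x_at probe sets. The log2 difference was -1.64 for PRMT7, which makes monomethylarginine (limma adjusted p = 7.06e-07), -1.275 for PRMT6, a type I enzyme of histones (limma adjusted p = 8.13e-08), and -1.02 for PRMT3, a type I enzyme of ribosomal proteins (limma adjusted p = 7.44e-09). CARM1, which methylates histones and coactivators, fell by 0.46 (limma adjusted p = 0.00299). PRMT3 was the 1 member of this list that was higher with ADMA than in serum-starved cells, by 0.39 (limma adjusted p = 0.000248); with centred arrays none passed.

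Of 5 partners of PRMT1 and PRMT5, 4 fell with serum starvation and BTG1, an antiproliferative protein that binds PRMT1, rose by 1.22 (limma adjusted p = 9.08e-08). WDR77, the obligate partner of PRMT5, fell by 1.01 (limma adjusted p = 1.02e-07). CLNS1A, which brings splicing proteins to PRMT5, fell by 0.69 (limma adjusted p = 1.95e-08), but another of its probe sets, without the suffix that marks shared probes, differed by 1.55 the other way (limma adjusted p = 0.00450). RIOK1 and COPRS, other adaptors of PRMT5, fell by 0.51 and 0.67. With ADMA, BTG1 fell by 0.54 relative to serum-starved cells (limma adjusted p = 0.000513), and CLNS1A and COPRS were 0.35 and 0.27 higher, the latter not without serum-starved replicate 2 or ADMA-treated replicate 4; with centred arrays BTG1 alone of the 5 passed.

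Of 7 other cationic amino acid carriers tested, 2 fell and 1 rose with serum starvation. SLC7A7, the light chain of a carrier that exports arginine, fell by 0.96 with serum starvation (limma adjusted p = 7.30e-09) and was 0.74 higher with ADMA than in serum-starved cells (limma adjusted p = 4.32e-07). SLC25A15, the mitochondrial ornithine carrier, fell by 0.91 with serum starvation (limma adjusted p = 7.91e-07) and differed by -0.93 from control in ADMA-treated cells (limma adjusted p = 4.74e-07). SLC3A2, the heavy chain that pairs with SLC7A7, rose by 0.69 with serum starvation (limma adjusted p = 2.67e-06) and fell by 0.37 with ADMA relative to it (limma adjusted p = 0.00139). With centred arrays its difference under serum starvation was 0.30 and did not pass. In ADMA-treated cells SLC3A2 was 0.32 and SLC25A29, a mitochondrial carrier of basic amino acids, 0.45 above control, but at -0.18 and -0.05 with centred arrays, and SLC25A29 did not pass under quantile normalization. SLC3A2 lost this call without control replicate 3, and SLC25A29 without control replicate 2 or 3, serum-starved replicate 1 or 2, or ADMA-treated replicate 1, 2 or 3.

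Of 6 other enzymes of arginine and citrulline tested, 3 fell with serum starvation and 1 rose. AGMAT, annotated as an agmatinase, fell by 2.19 (limma adjusted p = 1.05e-11) and was 0.68 higher with ADMA than in serum-starved cells (limma adjusted p = 4.73e-06), while another of its probe sets differed by 0.57 and -0.10 without passing. ASL, which follows ASS1 in arginine synthesis, fell by 0.37 (limma adjusted p = 0.000309) and was 0.41 higher with ADMA (limma adjusted p = 0.000193). With centred arrays ASL did not pass between ADMA-treated and serum-starved cells. OAT, which uses ornithine, fell by 0.63 with serum starvation (limma adjusted p = 5.29e-07) and stood at -0.70 in ADMA-treated cells against control. GATM, the first enzyme of creatine synthesis from arginine, was 0.83 higher with ADMA than in serum-starved cells (limma adjusted p = 0.00723). That call was lost under quantile normalization (0.75), with centred arrays, and without serum-starved replicate 1 or 3 or ADMA-treated replicate 1, 2 or 4, where it was 0.65 to 0.88. AZIN2, an antizyme inhibitor once taken for an arginine decarboxylase, rose by 0.55 with serum starvation (limma adjusted p = 0.00409), and did not pass with either other scaling or without control replicate 2 or 3 or serum-starved replicate 1.

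**Figure D5:**
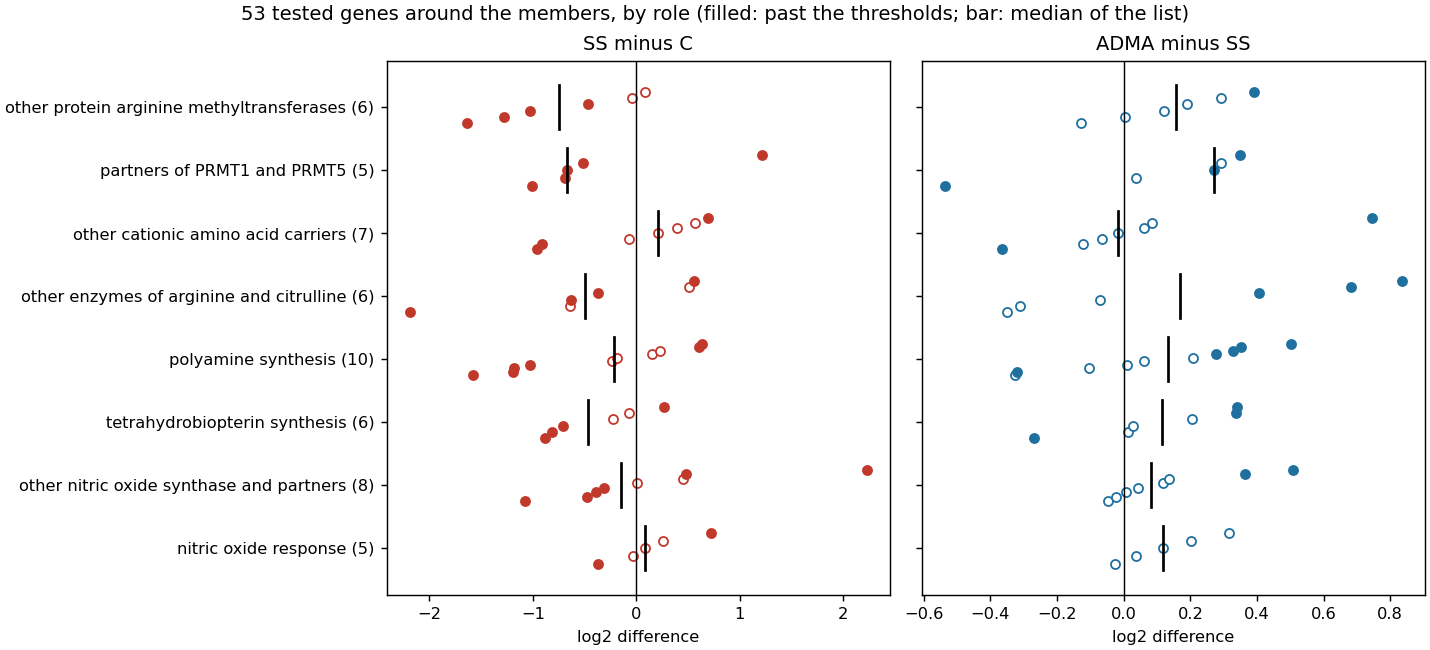
Log2 differences of the 53 tested genes around the members, by list, for serum-starved minus control (left) and ADMA-treated minus serum-starved (right); each point is a gene, filled where past both thresholds, the black bar is the median of the list, the number of genes is in brackets, and the panels have their own scales. On the left the filled points reach lowest in the enzymes of arginine and citrulline (-2.19), the methyltransferases (-1.64) and polyamine synthesis (-1.58).

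Among 10 genes of polyamine metabolism, which starts from the ornithine that arginase makes, 4 fell with serum starvation and 2 rose. SRM, spermidine synthase, fell by 1.58 (limma adjusted p = 4.89e-10), AMD1, which supplies decarboxylated S-adenosylmethionine, by 1.19 (limma adjusted p = 2.50e-09), ODC1, the ornithine decarboxylase, by 1.18 (limma adjusted p = 2.80e-10) and SMS, spermine synthase, by 1.02. The 2 that rose, SAT1 and PAOX, act in polyamine breakdown; they rose by 0.61 and 0.63 as deposited and did not pass with centred arrays. With ADMA, ODC1 was 0.50 (limma adjusted p = 5.82e-06), SRM 0.35 and AMD1 0.33 higher than in serum-starved cells, SRM not without serum-starved replicate 2. With centred arrays ODC1 alone of these 3 passed. Of the 10 genes, 4 were higher with ADMA as deposited and 1 lower. The lower one was SAT1, at -0.32 (limma adjusted p = 0.000442), which was called lower under all 3 scalings. With centred arrays 1 of the 10 was higher and 2 lower. In ADMA-treated cells SRM, AMD1 and SMS differed from control by -1.23, -0.87 and -0.82.

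Of 6 genes of tetrahydrobiopterin, the cofactor of nitric oxide synthases, 3 fell with serum starvation: PCBD1 by 0.88, QDPR by 0.81 and SPR, sepiapterin reductase, by 0.71 (limma adjusted p = 3.58e-08, 3.22e-08 and 2.27e-07). GCH1 rose by 0.27 as deposited and did not pass with centred arrays. PCBD1 and QDPR recycle the cofactor. With ADMA, SPR and PCBD1 were each 0.34 higher than in serum-starved cells as deposited, though not past the thresholds with centred arrays. GCH1, which catalyses the first step, was lower with ADMA than in serum-starved cells by -0.27 (limma adjusted p = 0.00398). That call was lost under quantile normalization (-0.24) and without serum-starved replicate 1 or 2 or ADMA-treated replicate 4 (-0.24 to -0.25). It held with centred arrays.

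Of 8 other genes of nitric oxide synthase and its partners, 4 fell and 2 rose with serum starvation. NOS1AP, the adaptor of the neuronal synthase, is 1 of the 2 counted as rising. It differed by 2.23 with serum starvation and stood 2.27 above control in ADMA-treated cells. Its control arrays read 5.55 to 6.72, close to background, with a mean of 6.20, under the filter of 6.25. It reached the filter only through the serum-free groups, so no p is given for it. NOSIP, which binds NOS3 and moves it from the membrane, fell by 1.08 (limma adjusted p = 1.36e-07) and was at -0.96 in ADMA-treated cells. DYNLL1, which binds the neuronal synthase, fell by 0.48. NOSTRIN, a trafficking partner of NOS3, was 0.51 higher with ADMA than in serum-starved cells (limma adjusted p = 0.000367), and HSP90AB1, a chaperone, 0.36 higher (limma adjusted p = 0.000310); neither passed with centred arrays, nor HSP90AB1 under quantile normalization.

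Of 5 tested genes that respond to nitric oxide or handle its products, VASP, a substrate of the cyclic GMP-dependent kinase, rose by 0.72 with serum starvation (limma adjusted p = 1.97e-05), though not with centred arrays, and was 0.92 above control with ADMA. ADH5, which reduces S-nitrosoglutathione, fell by 0.37 (limma adjusted p = 0.000146). None of the 5 passed between ADMA-treated and serum-starved cells, where ADH5, the brightest of them, differed by 0.12 (limma adjusted p = 0.134). GUCY1A1, GUCY1A2 and GUCY1B1 of the same list did not reach the filter on dim signals, so these counts leave them out.

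For the 5 tested members whose group means spanned at least 1 on the log2 scale, the genes with the most similar profile were found by the root mean square difference in log2 signal over the 10 arrays, each profile centred on its own mean. The 2 nearest to PRMT1 were HJURP, a centromere histone chaperone, at 0.0936, and BSG at 0.0959. Those nearest to ASS1 were SUCLG1, a subunit of succinyl-CoA synthetase, at 0.0433 and NUDC at 0.0458. PRMT5 had SELENON at 0.0431 and NDUFAF5, an assembly factor of respiratory complex I, at 0.0519. DDAH2 had SLC9A8 at 0.0822 and TRIM33 at 0.106. SLC7A2 had no equally close gene; TMEM200A at 0.18 and ELOVL6, a fatty acid elongase, at 0.188 were its nearest. These likenesses were taken over 10 arrays in 3 groups and describe shared differences between the groups.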

How the data were processed

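The authors measured total RNA of LoVo cells on Affymetrix HG-U133 Plus 2.0 arrays and deposited 1 MAS 5.0 intensity per probe set and array, on a linear scale, scaled to a common 2% trimmed mean. Of 54675 probe sets, 41091 carry 1 symbol in the platform annotation. Here log2 of each intensity was taken with no pseudocount, and genes whose best probe set had a mean of at least the median of all probe sets (signal 76.2) were tested with limma 3.58.1 in R 4.3.3 (lmFit, eBayes with trend) in 1 model over 10 arrays, with Benjamini-Hochberg adjustment. The methods' SAM test, other scalings, filters, probe set rules and leaving out arrays were alternatives. The members, lists and named genes were chosen with earlier results of these data known. In each list up to 3 called genes with the largest difference per comparison were named, or the brightest where none was called. CARM1, SAT1, PAOX and SMOX were added after their values were seen. The 10 arrays limit the precision, and no 2 held identical values. The limma and SAM calls and the search for similar profiles were tested on simulated data first. The other steps were not. Sequences came from RefSeq (GRCh38.p14). Python 3.11.15 and matplotlib 3.10.9 drew the figures.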

Additional observations from a re-analysis of the deposited data

How the results depend on the processing

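Of 657 values of the 27 differences of members over 25 alternatives, 613 kept their direction and side of the thresholds, 22 lost their call, 8 gained one and 14 changed sign. Direction could not change where a setting altered only the filter, the test or the thresholds, or left out an array outside the comparison. With the replicate number as a block, all 27 kept both. The members counted were 2 higher and 5 lower, 4 and 1, and 2 and 5, as without the block. Only ADMA-treated cells had a replicate 4, so in the block fit that array added nothing to the differences. The deviations of same-numbered arrays had correlations of -0.07 to 0.10 in 9 pairs, with 1 over 0.1. A pair with different numbers reached 0.14, so these correlations cannot tell whether equal numbers mark a shared culture or day. With arrays centred on their medians, members higher numbered 1, 2 and 0 in the 3 comparisons (serum-starved against control, ADMA-treated against serum-starved, ADMA-treated against control), and all genes 2013, 901 and 1209 higher and 5184 and 6101 lower in the first and the third. With the mean of all probe sets per gene, which tested 7 members, 1, 1 and 1 were higher and 2 and 3 lower in the first and the third, and 942 genes were lower in the second. Without probe sets whose ID ends in _s_at or _x_at, which left 5 members, 0, 2 and 0 were higher and 2 and 2 lower, and 1286 genes were higher in the second. With SAM, 1, 2 and 1 members were higher and 3 lower in the third. Of the 12344 genes, 2032, 920 and 1520 were then lower, and 981 were higher in the second. Only counts marked as moved from the main fit are listed, so for both probe set rules most counts of all genes are left out. Those rules also tested fewer genes than 12344, so 942 and 1286 are not shares of that number. The member counts under these rules cannot be read against all genes from the counts given here.

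Signs changed for DDAH1 (0.0778 with quantile normalization and 0.0161 with the mean of probe sets under serum starvation; -0.0049 with that mean for ADMA against serum starvation; -0.30 centred against control), DDAH2 (0.00952 with the mean of probe sets, ADMA against serum starvation), SLC7A1 (under serum starvation -0.0204 with the mean and -0.139 without shared probe sets; with ADMA -0.05255 centred and -0.05605 with the mean; against control -0.00268 centred and -0.07645 with the mean) and ARG2 (under serum starvation -0.24 centred and -0.11 without shared probe sets). They changed for CLNS1A under serum starvation (0.43 with the mean and 1.55 without shared probe sets), for SLC25A29 and SLC3A2 with ADMA against control (-0.0545 and -0.183 centred), and for AGMAT without shared probe sets (0.57, -0.10 and 0.48). Leaving out 1 array at a time, NOS3 with ADMA against serum starvation ranged from -0.212 to 0.0399, the latter without serum-starved replicate 3. PRMT1 lost all 3 calls with the mean of probe sets, which includes a probe set never above background. GATM and GCH1 lost their ADMA calls with the replicate block (0.88 and -0.24). The causes of the other changes were not tested. Signals near background limit NOS2 and the dim probe sets.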
